A study of Mus musculus with 4 samples.

Results

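Integrins are the cell surface receptors that anchor cells to the extracellular matrix, and laminins are the basement membrane proteins that many of them bind. The 38 protein-coding genes of these families were taken by symbol from the RefSeq gene table of GRCm38 (mm10), out of 21887 protein-coding genes. They were 18 integrin alpha genes, 9 integrin beta genes, among them Itgb2l, and 11 laminin genes. The protein-binding genes Itgb1bp1, Itgb1bp2 and Itgb3bp and the integrin-like gene Itgbl1 were not counted as members. A region belonged to a member when it overlapped the gene body extended by 2000 bp on both sides by at least 1 bp.

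The libraries came from satellite cells, the stem cells of skeletal muscle, of 9-week-old mice, taken from hindlimb muscle and cultured for 3 days on Matrigel (1 mg/ml). Tamoxifen mice were injected with 150 µl of tamoxifen (20 mg/ml in corn oil) on 5 consecutive days to trigger Cre recombination and remove Uhrf1. Control mice, labelled oil, were listed with the same injection volume and number of days and with no tamoxifen concentration. The Cre driver, the Uhrf1 allele and whether animals were pooled are not given in the sources used here. DNA bound by an MBD2-based kit, which retains methylated DNA, and DNA it did not bind were sequenced, giving 4 libraries with 1 per group. The list analysed was called once, on a tamoxifen library of 25614791 tags and an oil library of 19534328 tags after removal of duplicates. Before that removal they held 36519772 and 35216008 tags, with redundant rates of 0.3 for tamoxifen and 0.45 for oil. The scaling of the libraries used the tags that remained. Which DNA part the list came from is not stated, and it is read here as the bound part. The labelled cell type could not be checked from captured DNA.

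A laminin molecule is a trimer of an alpha, a beta and a gamma chain. Around the muscle fibre, laminin with the Lama2 chain forms the basement membrane, and Itga7 paired with Itgb1 is a main receptor for it on fibres and satellite cells. Satellite cells lie between that basement membrane and the fibre. An integrin is a pair of an alpha and a beta chain, and the alpha chain largely sets which ligand is bound. The Uhrf1 protein guides the methyltransferase Dnmt1 to freshly copied DNA, so that methylation is passed on when cells divide. Methylation of CpG at a gene's start is associated with silencing, whereas methylation within the body of a gene is common in active genes.

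Of the 38 members, 27 (71.1%) carried 1 or more regions in which the tamoxifen library was lower than the oil library, 73 distinct regions in all. Among all protein-coding genes the share was 45.2%. Members are long genes, with a median body of 62.1 kb against 17.2 kb for all protein-coding genes, and long genes carried regions more often. At the shares found in genes of like length, 24.9 of 38 members would carry a region, so that 27 is close to the background. Per 100 kb, members held 2.00 regions and all protein-coding genes 2.24. The families as a whole therefore held regions about as often as other genes of their length, and the results below describe which chains held them and where.

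The fold of a region is the authors' own value, the oil tags over its summit plus 1 divided by the scaled tamoxifen tags plus 1, so that a value above 1 means less captured DNA in the tamoxifen library. Tags are given unscaled, as counts over the summit. Over the 73 regions the median was 12 tamoxifen tags (range 2 or fewer to 82) and 46 oil tags (range 20 to 188). The median fold was 4.67 (quartiles 3.75 and 6.03), against 4.61 over all 39231 regions. After scaling, the tamoxifen library held a median of 19.8% of the oil signal in these regions. A fold of 4 or more was found in 47 of them (64.4%), against 66.1% of all regions. Each treatment has 1 library, so the variation from mouse to mouse is unknown and the conditions were not tested against each other. Loss of Uhrf1, tamoxifen itself, the animals and the strength of the capture cannot be told apart as sources of a difference, nor can less methylation in all cells and in some of them. The 95% limits given in brackets are exact limits of the ratio of oil to scaled tamoxifen tags, which has no added 1. They cover counting error only.

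**Figure D1:**
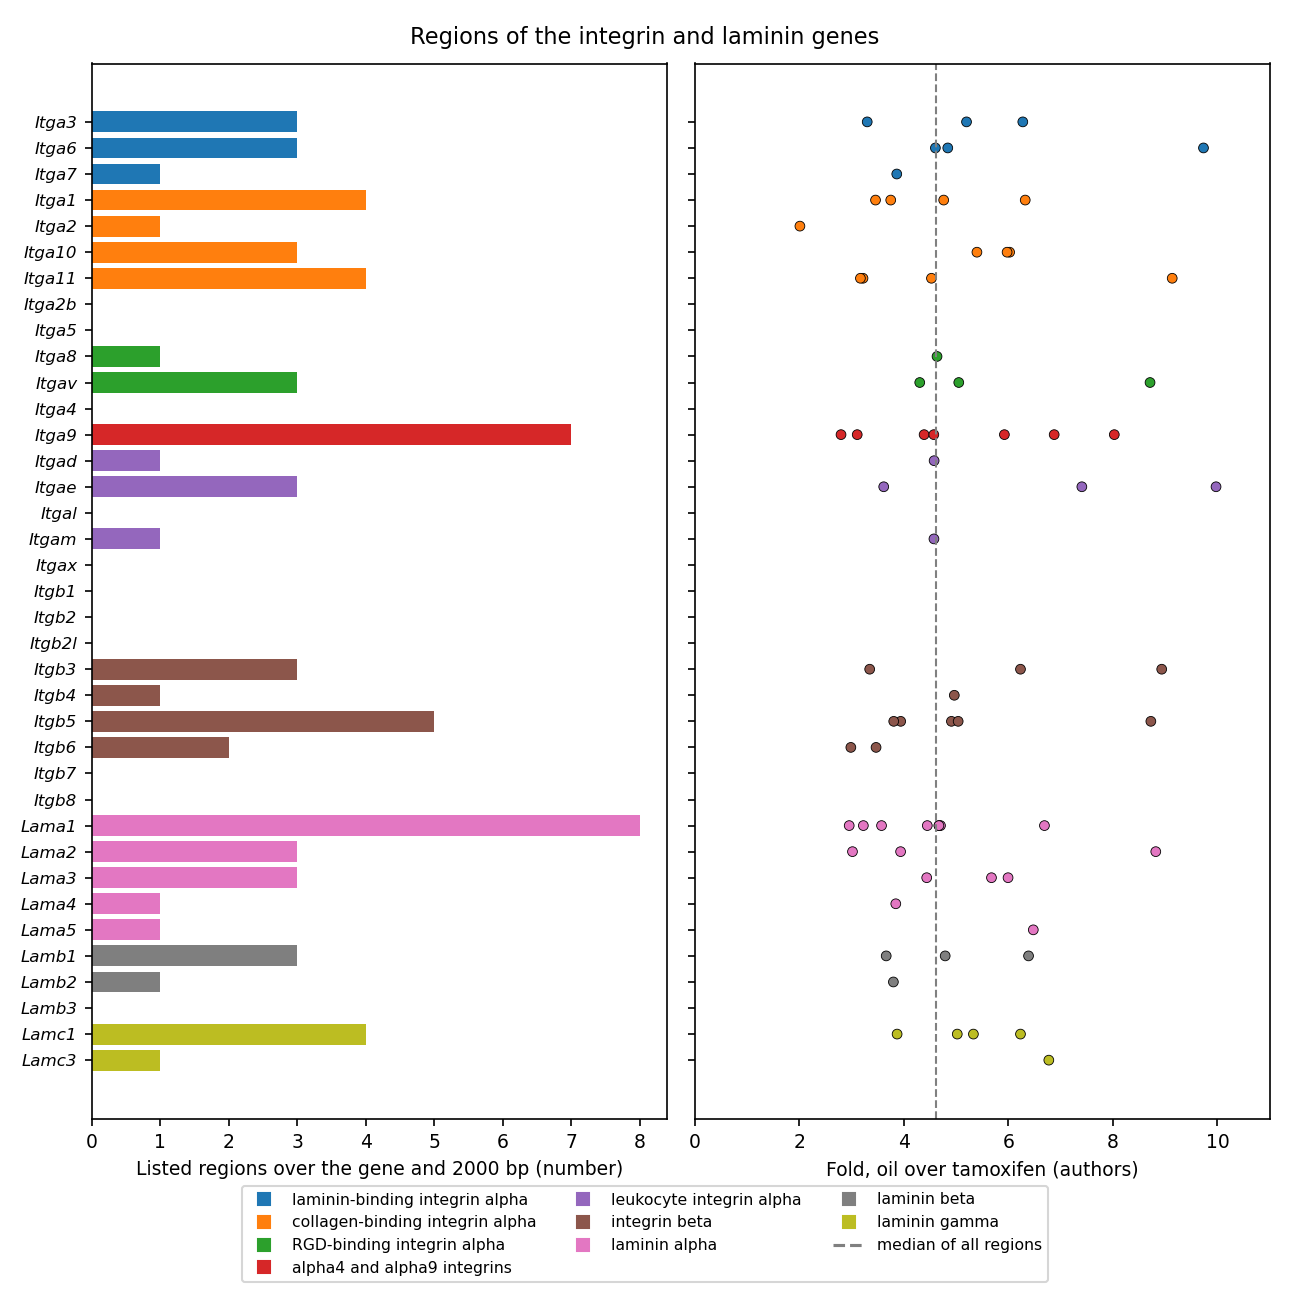
The left panel gives the number of listed regions for 37 of the 38 genes, grouped by role, and the right panel the oil over tamoxifen fold of each region, with a dashed line at the median of all regions (4.61). Lama1 had the most regions, with 8, and 11 genes had none; folds ran from 2.01 in Itga2 to 9.97 in Itgae.

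**Figure D2:**
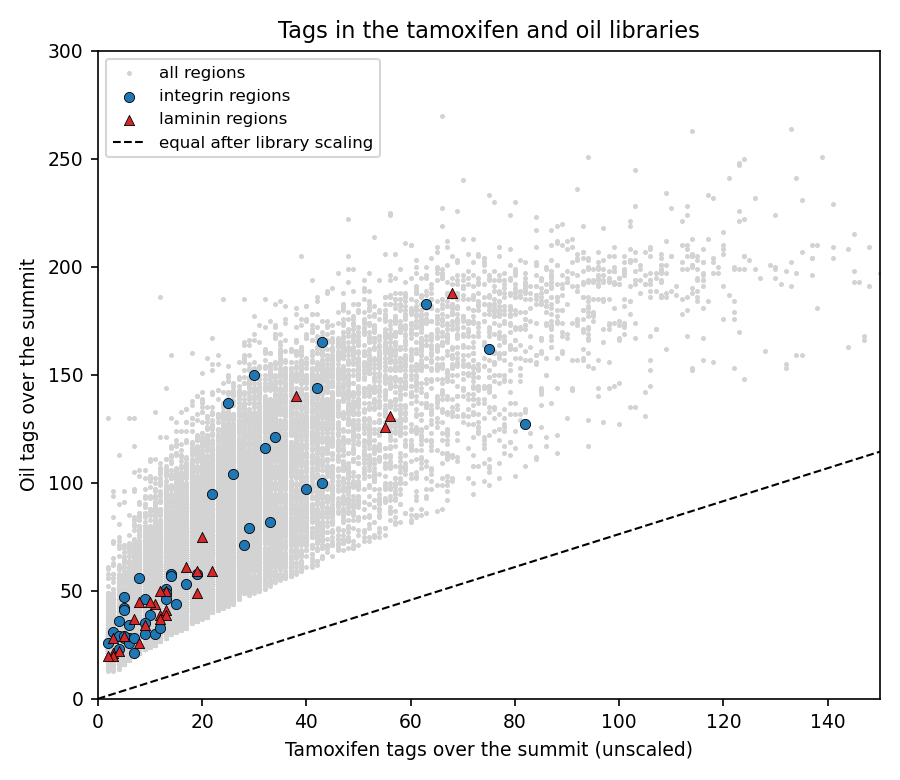
Each point is a region, with unscaled tamoxifen tags over its summit on the x axis and oil tags on the y axis; circles are integrin regions, triangles laminin regions and grey points all regions within the axes. Every listed region lies above the dashed line at which both libraries would be equal after scaling, because the list was called in that direction only. Members lie among the other regions.

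Where the regions lay was examined first, since the effect of methylation depends on place. Of the 73 regions, 69 overlapped the body of the member and 4 lay outside it. Among these, the region of Itgad lay in Cox6a2, which encodes a muscle form of a cytochrome oxidase subunit, that of Itgb4 in the galactokinase gene Galk1, and that of Itga9 in the lncRNA gene LOC102636563. They cannot be assigned to the member alone. Inside the bodies, the region of Itga7 and 1 of Itgb6 also overlapped a lncRNA gene, Gm46186 and Gm33436. A region within 2000 bp of a gene end was found for 6 members (15.8%), Itga3, Itga9, Itga10, Itgad, Itgb4 and Lamb1, against 18.4% of all protein-coding genes. The gene table gives no exons, so exonic and intronic regions were not told apart.

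Start sites were known for 24 of the 38 members, from 27 RefSeq windows of GRCm38.p6 that run from 250 bases before a start to 50 after it. The members with no entry included Itga6, Itga7, Itgad, Itgae, Itgal, Itgb2, Itgb3, Itgb4, Lama1, Lama3, Lama4, Lamc1 and Lamc3. No region overlapped a window of the 24, and 0.909% of the 17492 protein-coding genes with an entry had such an overlap. Some windows lie well inside the body. The only Itga9 start with an entry is at 118711692, in a body that begins at 118606709. The Lamb3 starts are at 193301994 and 193302243, in a body that begins at 193294353. The windows thus did not cover the 5′ ends of the Itga9 and Lamb3 bodies. Within 2000 bp of a start, 2 members had a region, Itga3 and Itga10, or 8.33%, against 8.32% of all genes with an entry. MBD2 binds methylated CpG, so the CpG in these windows bears on what could be captured there. The windows held a median of 10 CpG (range 1 to 27), against 13 over all 21263 windows, and 15 of 27 held 10 or more (55.6%, against 56.8%). The windows nearest to a region, those of Itga10 and of the inner start of Itga3, are shown with the windows with the most and the fewest CpG, those of Itgb1 and Lama2. Each is written 5′ to 3′ on the strand of the gene, with CpG in capitals.
Itga10, chr3:96645334-96645633, plus strand: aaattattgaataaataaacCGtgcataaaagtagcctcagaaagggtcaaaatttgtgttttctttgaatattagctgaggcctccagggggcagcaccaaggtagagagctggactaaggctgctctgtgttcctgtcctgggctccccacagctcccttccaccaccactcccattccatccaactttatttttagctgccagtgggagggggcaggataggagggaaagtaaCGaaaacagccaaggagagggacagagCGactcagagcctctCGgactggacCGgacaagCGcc
Itga3 (inner start), chr11:95069149-95069448, minus strand: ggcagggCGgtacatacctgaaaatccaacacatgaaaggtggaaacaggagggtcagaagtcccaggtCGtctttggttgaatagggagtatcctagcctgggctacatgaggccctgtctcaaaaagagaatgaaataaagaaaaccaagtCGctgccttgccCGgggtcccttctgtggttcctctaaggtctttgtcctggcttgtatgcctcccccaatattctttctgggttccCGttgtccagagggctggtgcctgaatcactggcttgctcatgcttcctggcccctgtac
Itgb1, chr8:128685404-128685703, plus strand: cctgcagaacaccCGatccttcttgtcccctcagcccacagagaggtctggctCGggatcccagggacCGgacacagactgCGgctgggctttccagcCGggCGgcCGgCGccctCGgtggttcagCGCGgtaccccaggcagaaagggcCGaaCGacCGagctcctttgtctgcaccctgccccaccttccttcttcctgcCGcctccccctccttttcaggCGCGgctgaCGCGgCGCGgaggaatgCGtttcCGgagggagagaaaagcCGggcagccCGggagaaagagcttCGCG
Lama2, chr10:27616893-27617192, minus strand: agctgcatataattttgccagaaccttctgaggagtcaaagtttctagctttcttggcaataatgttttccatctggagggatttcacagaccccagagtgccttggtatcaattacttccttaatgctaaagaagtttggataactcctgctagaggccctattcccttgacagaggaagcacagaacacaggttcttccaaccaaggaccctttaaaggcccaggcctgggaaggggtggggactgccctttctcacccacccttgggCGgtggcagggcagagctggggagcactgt

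The Itga10 window held 6 CpG, and 67.7% of all windows held at least as many. The inner Itga3 window held 5 CpG, and its region began 355 bases after that start. The outer start of Itga3, with 24 CpG, had no region within 2000 bp. Itgb1 had 27 CpG, a number reached by 20.7% of all windows, and no region over its window or anywhere in the gene. The Lama2 window had 1 CpG, and 11.4% of all windows had as few. Over all windows, regions within 2000 bp of the start were found for 4.86% of those with 0 to 4 CpG, 10.4% with 5 to 9, 10.3% with 10 to 19 and 7.41% with 20 or more.

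In the genes of known strand, 40 regions had their summit inside the body. When each body was divided into 4 equal parts from the 5′ end, the first part held 7 of them (17.5%), the second 11, the third 12 and the last 10. Over all protein-coding genes of known strand the shares were 18.9%, 22.3%, 25.4% and 33.4%. In both, the part at the 5′ end held the fewest regions. As a share of the body, the nearest to a 5′ end were a region of Itgb5, 2247 bases after its start, and one of Lama2, 12717 bases after its start.

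**Figure D3:**
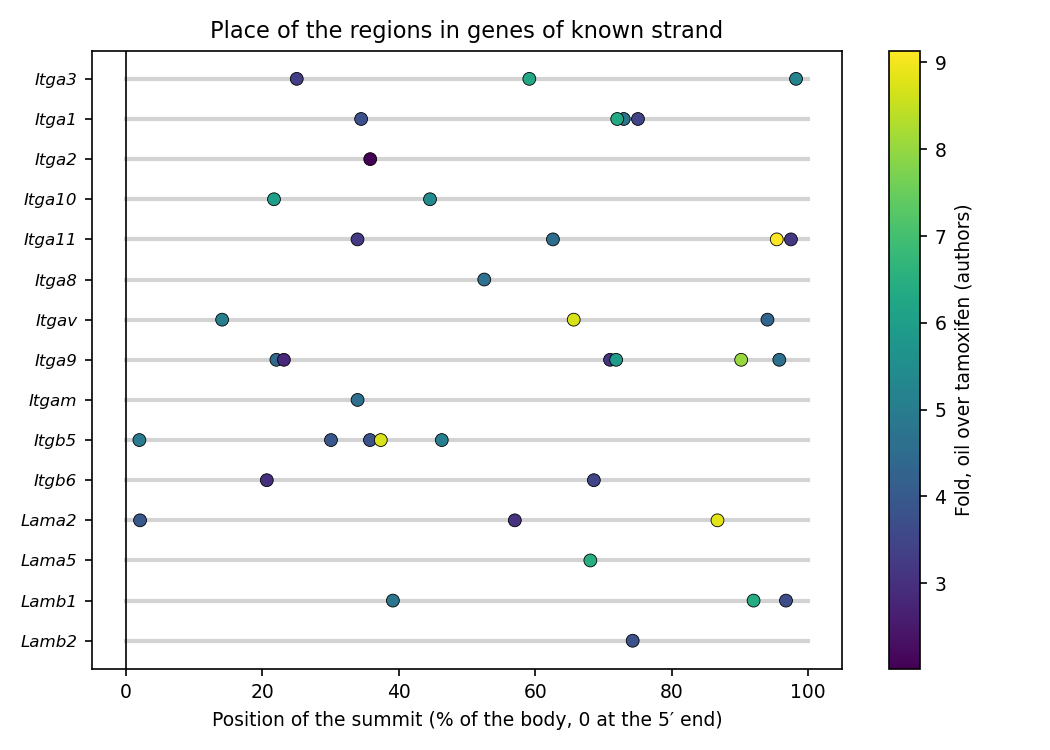
Each grey line is the body of a member with a known strand and at least 1 region, drawn from its 5′ end at 0% to its 3′ end at 100%, and each point is a summit inside the body, coloured by its oil over tamoxifen fold. Points are spread along the bodies, with 7 of 40 in the first of 4 equal parts.

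The laminin-binding alpha chains, Itga3, Itga6 and Itga7, carried regions in all 3 genes, 7 regions with a median fold of 4.84. Of all protein-coding genes, 55.3% in the length class of Itga3 and Itga7 and 72.5% in that of Itga6 carried a region. Itga6, which binds laminin with either Itgb1 or Itgb4, had the highest fold of the 7 regions. That region, on chromosome 2 from 71810073 to 71810336, had 3 tamoxifen and 31 oil tags, a fold of 9.73 (4.23 to 69.3). The wide limits follow from the few tamoxifen tags. A better covered region of Itga6, from 71827779 to 71828133, had 32 tamoxifen and 116 oil tags (fold 4.61, limits 3.19 to 7.27), and a region between them 6 and 26 tags (fold 4.84). At these 3 regions the tamoxifen library kept from 7.38% to 21.0% of the oil signal, and the 2 pairs of limits overlap. The rest of the gene has no values here.

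Itga7, the laminin receptor chain of muscle, had 1 region. It lay inside the gene, on chromosome 10 from 128941435 to 128941667, with 17 tamoxifen and 53 oil tags and a fold of 3.87 (limits 2.33 to 7.53). Its tamoxifen signal was 24.5% of the oil signal after scaling, a smaller difference than at the median member region. Itga3, a laminin receptor of epithelia, had 3 regions in a body of 32.4 kb. With 8.25 regions per 100 kb it was the densest member among those of 20 kb or more, ahead of Lama1 (6.18), Itgae (4.92) and Itgb3 (4.51). Among shorter members, Itga10 (18.9 kb, 3 regions) held 13.1 per 100 kb and Lamb2 (10.7 kb, 1 region) 6.81. The regions of Itga3 had 6 tamoxifen against 34 oil tags (fold 6.28), 6 against 28 (5.201, near the 3′ end) and 11 against 30 (3.30, after the inner start).

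The collagen-binding alpha chains also carried regions in all 4 genes, 12 regions with a median fold of 4.65. The share of all protein-coding genes with a region was 81.9% in the length class of Itga1 and Itga11, 72.5% in that of Itga2 and 27.0% in that of Itga10. Itga11, a collagen receptor of fibroblasts, had 4 regions. Its strongest (chromosome 9, 62778955 to 62779238) had 4 tamoxifen and 36 oil tags, a fold of 9.13 (4.23 to 45.6). Only 1899 bp further on, another region of Itga11 had 33 tamoxifen and 82 oil tags, a fold of 3.17 (2.15 to 5.04). The limits of these 2 regions overlap.

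Itga1, which binds basement membrane collagen, had 4 regions, of which 3 lay within 4919 bp on chromosome 13 (114993626 to 114998544). They had 29 tamoxifen and 79 oil tags, 13 and 51, and 30 and 150, with folds of 3.46, 4.76 and 6.32. The fourth was among the best covered of all members, with 63 tamoxifen and 183 oil tags (fold 3.75, limits 2.85 to 5.16). Itga10, a collagen receptor of cartilage, had 3 regions, and those inside the gene had folds of 5.98 and 5.40. The better covered of these (chromosome 3, 96653789 to 96654099) had 22 tamoxifen and 95 oil tags (limits 3.53 to 9.46).

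Itga2 had the smallest difference of any member. Its only region (chromosome 13, 114896478 to 114896679) had 82 tamoxifen and 127 oil tags, a fold of 2.01 (limits 1.53 to 2.71), and the tamoxifen library kept 49.2% of the oil signal. With unscaled tamoxifen tags the fold was 1.54, and the region no longer passed the p of the least certain listed region. The call at Itga2 thus rested on the scaling of the libraries. No other member lost all of its regions under that setting.

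Among the alpha chains that bind the RGD sequence of fibronectin, vitronectin and related proteins, Itgav and Itga8 carried regions, and Itga5 and Itga2b did not. In the length classes of Itgav and Itga8, 72.5% and 81.9% of all protein-coding genes carried a region. In those of Itga5 and Itga2b, 55.3% and 27.0% did, so no trait of these chains is read from this split. Itgav, which pairs with several beta chains, had 3. At the strongest (chromosome 2, 83777775 to 83777988) the tamoxifen library had 2 or fewer tags and the oil library 26. The caller does not let the background drop under the genome mean, and that mean set the fold of 8.71 at this site, while the lower limit of the tag ratio was 4.27 with 2 tags assumed. The other two had 14 tamoxifen against 58 oil tags (fold 5.05) and 13 against 46 (4.31). Itga8, best known from kidney development, had 1 region in a body of 195 kb, with 10 tamoxifen and 39 oil tags (4.64). Itga5 encodes the classical fibronectin receptor chain and Itga2b that of platelets.

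Itga9, a receptor for tenascin and other ligands, had 7 regions, while Itga4, the related chain that binds VCAM1 and fibronectin, had none. The body of Itga9 is 294 kb and that of Itga4 77.7 kb. In their length classes, 89.4% and 72.5% of all protein-coding genes carried a region. The strongest region of Itga9 (chromosome 9, 118871922 to 118872292) had 8 tamoxifen and 56 oil tags, a fold of 8.03 (4.35 to 22.3). The weakest (118674791 to 118675036) had 75 tamoxifen and 162 oil tags, a fold of 2.80 (2.14 to 3.78). The tamoxifen library kept 10.9% and 35.3% of the oil signal at these sites. Both were picked as the ends of the range of 7 regions, so their difference is a description. The region beyond the 3′ end, in LOC102636563, had 25 tamoxifen and 137 oil tags (6.88, limits 4.67 to 11.5).

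The alpha chains of leukocytes were counted apart, because immune cells can be present in muscle cultures. Itgae, the chain of tissue-resident lymphocytes that binds E-cadherin with Itgb7, had 3 regions and the highest fold of all members. That region (chromosome 11, 73121683 to 73121924) had 5 tamoxifen and 47 oil tags, a fold of 9.97 (4.92 to 39.7). The others had 4 tamoxifen against 29 oil tags (7.41) and 15 against 44 (3.62). Itgam, a chain of macrophages and granulocytes, had 1 region with 9 tamoxifen and 35 oil tags (4.58). Itgad had 1, just beyond its body in Cox6a2, with 13 tamoxifen and 49 oil tags (4.58). Itgal and Itgax, which like Itgam and Itgad pair with Itgb2, had none. Of all protein-coding genes, 72.5% in the length class of Itgae and Itgam carried a region. In the class of Itgad, Itgal and Itgax 55.3% did, so no trait of these chains is read from which carried one.

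Among the beta chains, 4 of 9 genes carried 11 regions with a median fold of 4.91. Itgb1, the partner of every laminin-binding and collagen-binding alpha chain named above, had no region over its 47.9 kb or 2000 bp on either side. Itgb2, Itgb2l, Itgb7 and Itgb8 had none either. Itgb2 and Itgb7 are beta chains of leukocytes, and Itgb8 activates latent TGF-beta. In genes of 20 to 50 kb, the class of Itgb1, Itgb2 and Itgb2l, 55.3% of all protein-coding genes carried a region. The absence of a region leaves unknown whether the DNA was captured in either library, since unlisted sites have no values here.

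Itgb5, which with Itgav binds vitronectin, had 5 regions, the most of any beta chain. Its best covered region (chromosome 16, 33831912 to 33832211) had 43 tamoxifen and 165 oil tags, a fold of 4.91 (3.58 to 7.21). Its strongest (33874207 to 33874561) had 5 tamoxifen and 41 oil tags (8.73, limits 4.25 to 34.9). Itgb3, the partner of Itgav and Itga2b on osteoclasts and platelets, had 3, led by a region with 5 tamoxifen and 42 oil tags (chromosome 11, 104661817 to 104662135, fold 8.93, limits 4.36 to 35.7). Itgb6, an epithelial chain, had 2 weaker regions, with 43 tamoxifen against 100 oil tags (2.99) and 7 against 21 (3.47). The second of these did not pass with unscaled tamoxifen tags. The single region of Itgb4, the hemidesmosome chain, lay 45 bp beyond its body, in Galk1, with 14 tamoxifen and 57 oil tags (4.97).

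Of the 11 laminin genes, 10 carried 27 regions, and Lamb3 had none. Among all protein-coding genes 45.2% carried a region, from 27.0% of those under 20 kb to 89.4% of those of 200 kb or more. The median fold of laminin regions was 4.67, against 4.70 for the 46 integrin regions. Per 100 kb, laminin genes held 1.67 regions and integrin genes 2.26. No test was made of either difference.

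Lama1, the alpha chain of the first basement membranes of the embryo, had 8 regions, the most of any member. Of these, 5 lay within 6869 bp on chromosome 17 (67805653 to 67812521). In that stretch tamoxifen tags were 3, 9, 19, 13 and 55, and oil tags 21, 34, 49, 50 and 126, in order along the chromosome. The folds of these 5 regions ran from 2.96 to 6.69. Their shared direction is no result, because the list was called only for less tamoxifen than oil signal. The best covered region of Lama1, outside that stretch (67747904 to 67748195), had 68 tamoxifen and 188 oil tags, the most oil tags of any member region, and a fold of 3.58 (2.73 to 4.86).

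Lama2, the alpha chain of the muscle fibre basement membrane, whose loss causes congenital muscular dystrophy, had 3 regions in the longest body of all members, 636 kb on chromosome 10 (26981285 to 27617191). It held 0.469 regions per 100 kb, the lowest density among members with a region, and protein-coding genes of 200 kb or more averaged 5.12 regions each. Its strongest region (27065614 to 27065845), toward the 3′ end of the gene, had 3 tamoxifen and 28 oil tags, a fold of 8.82 (3.78 to 62.9). Its best covered region (27254602 to 27254891) had 56 tamoxifen and 131 oil tags, a fold of 3.02 (2.23 to 4.27). The region nearest its start (27603966 to 27604225) had 12 tamoxifen and 39 oil tags (3.94, limits 2.19 to 8.94). The scaled tamoxifen signal was 8.17%, 32.6% and 23.5% of the oil signal at these 3 sites.

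The other alpha chains had fewer regions. Lama3, the alpha chain of the epidermal basement membrane, had 3 (folds 5.995, 5.68 and 4.44), at 7 tamoxifen against 37 oil tags, 4 against 22 and 17 against 61. Lama5, found in most adult basement membranes, had 1, with 8 tamoxifen and 45 oil tags (fold 6.48, limits 3.44 to 18.1). Lama4, a chain of blood vessel walls, had 1, with 13 tamoxifen and 41 oil tags (3.85).

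Among the beta and gamma chains, Lamc1, the gamma chain of most laminins, had 4 regions on chromosome 1. Tamoxifen tags were 5, 12, 10 and 19 and oil tags 29, 50, 45 and 59, with folds of 6.23, 5.02, 5.33 and 3.87. Lamb1 had 3, of which the strongest had 3 tamoxifen and 20 oil tags (chromosome 12, 31324237 to 31324584, fold 6.39, limits 2.59 to 45.9), another 11 and 44 (4.79), and that near its 3′ end 13 and 39 (3.67). Lamb2, the beta chain of the neuromuscular junction, had 1 with 8 tamoxifen and 26 oil tags (3.80) in a body of only 10.7 kb. Lamc3 had 1 of 6.77, set by the genome mean, with 2 or fewer tamoxifen and 20 oil tags. Lamb1, Lamb2 and Lamc1, the partners of Lama2 in muscle, each held at least 1 region. In their length classes, 72.5%, 27.0% and 81.9% of all protein-coding genes carried one, so no trait of these chains is read from this.

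**Figure D4:**
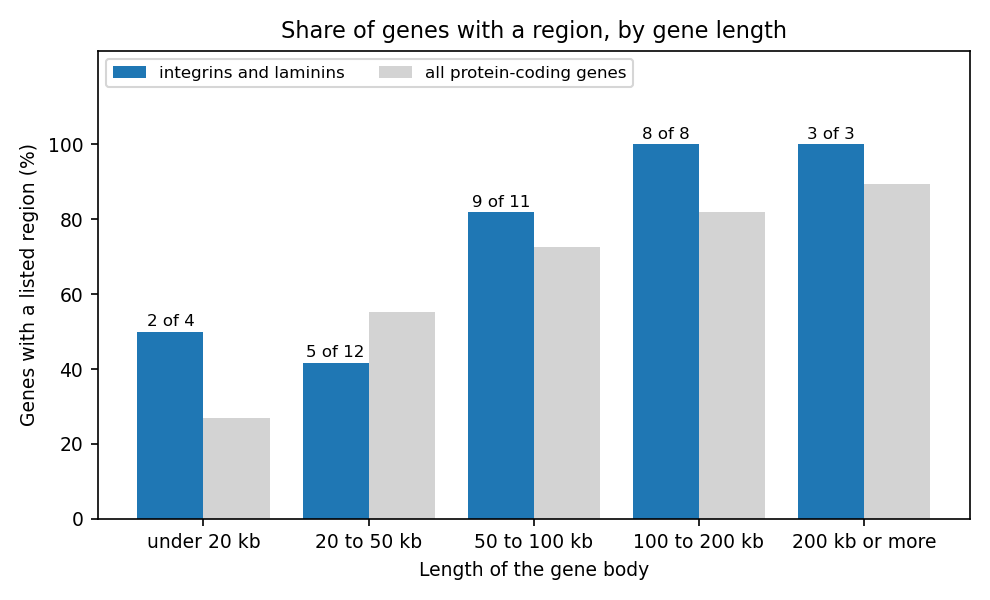
Bars give the percentage of genes with a listed region in each class of gene body length, for the integrin and laminin genes (left bar, number of genes above it) and for all protein-coding genes (right bar). The share of all genes rises with length; all 8 members of 100 to 200 kb and all 3 of 200 kb or more carried a region, against 81.9% and 89.4% of all genes.

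Gene length was set beside the presence of a region for the members without one. Of the 4 members under 20 kb, Itga10 and Lamb2 carried a region, against 27.0% of all genes of that class, and Itga2b and Itgb7 did not. Of 12 members of 20 to 50 kb, 5 did (41.7%, against 55.3%), and those without were Itga5, Itgal, Itgax, Itgb1, Itgb2, Itgb2l and Lamb3. Of 11 members of 50 to 100 kb, 9 did (81.8%, against 72.5%), with Itga4 and Itgb8 the exceptions. In each class the members' count lay within 2 genes of the number that the share of all genes gives.

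Values at the edge of the 2000 bp window are given as a description. The region farthest from a body inside it was that of Itga9, 1631 bp out. Just outside lay a region 2152 bp from Itgae, with 4 tamoxifen and 52 oil tags and a fold of 13.1, higher than any member region. The next lay 2236 bp from Itgam (27 tamoxifen and 71 oil tags, 3.33), 2560 bp from Lamb2 (11 and 40, 4.37) and 2933 bp from Itgb2l (18 and 102, 6.99).

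Genes that work with integrins inside the cell and with laminins in the matrix were counted in the same way. Of 31 adhesion partners, 22 carried 76 regions with a median fold of 4.94. Their share of 71.0% stands beside 45.2% of all protein-coding genes, but at the shares of genes of like length 19.4 of them would carry a region, close to 22. A region near a gene end was found in 5 of them (16.1%, against 18.4% of all protein-coding genes). Actn1, which links integrins to actin, had the highest fold (7 tamoxifen and 61 oil tags, 9.78), followed by the tensin gene Tns3 (4 and 37, 9.38), the adaptor gene Bcar1 (2 or fewer and 26, 8.71) and the parvin gene Parvg (8 and 60, 8.59). The talin genes Tln1 and Tln2 had 3 and 8 regions and the paxillin gene Pxn 11. Those without a region were Apbb1ip, Fermt1, Ilk, Itgb1bp2, Lims1, Nedd9, Rap1a, Tns2 and Vcl, which include the integrin-linked kinase and vinculin.

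Of 22 basement membrane partners and other laminin receptors, 18 carried 51 regions with a median fold of 5.38. Their share was 81.8%, against 45.2% of all protein-coding genes, and at the shares of genes of like length 15.2 of them would carry a region. The difference is under 3 genes and was not tested. The perlecan gene Hspg2 had 11 regions and the highest fold (2 or fewer tamoxifen and 33 oil tags, 10.97). Nid2, which encodes a nidogen that joins laminin to collagen, followed (5 and 50, 10.60), then the laminin receptor genes Bcam (25 and 154, 7.72) and, after the fibulin gene Fbln1 (3 and 23, 7.30), Dag1 (9 and 56, 7.25), which encodes the dystroglycan of muscle. Col4a4, Col4a6, Sparc and Vtn had none.

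Markers of the cell types that such a culture can hold were counted as genes with a region only, which gives no share of cells. Regions were found in 2 of 8 muscle cell markers (Des and Calcr), 2 of 6 leukocyte markers (Ptprc and the member Itgam), 4 of 5 endothelial and 4 of 5 fibro-adipogenic markers, beside 45.2% of all protein-coding genes. At the shares of genes of like length, 3.07, 3.46, 3.47 and 2.37 genes of these lists would carry one, so each count lay within 2 genes of the background, and no difference between cell types is read from them. The part of other cells in the leukocyte integrin regions was not tested.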

How the data were processed

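A single list of regions from captured DNA of the tamoxifen and oil libraries was analysed (1 library per treatment). It was made by the authors with MACS 2.2.6, oil being the treatment and tamoxifen the control input per the file headers, at a q limit of 1e-04, with at most 1 tag per position, tags of 130 bp extended to 201 bp and the larger library scaled down. Trim Galore, HISAT2 and mm10 are named in the submitters' processing notes. The deposited pileup is a signal, the unscaled oil tags over the summit. The deposited fold is the ratio described in the report. The deposited -log10 p and q values had lost their headings and were read from their place in the file. They compare 2 libraries, not 2 conditions.

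Tamoxifen tags were recovered from the deposited pileup and fold with the library factor of 0.763. They were whole within 0.02 tags in 38251 regions (97.5%), and the other 980 were at the genome mean of 2.10 scaled tags, hence 2 or fewer tags. Folds are taken where oil was highest and so are biased upward. Gene bodies came from RefSeq (GRCm38.p6) and start sites and sequences from its promoter table. Tag counts carry a 95% Clopper-Pearson interval. Python 3.11.15, pandas 2.3.3 and scipy 1.17.1 were used, and scripts were tested on simulated data. Members described in full were, in each role group, those of highest fold, the 6 with most regions, the 4 densest of 20 kb or more, all regions of Itga7, Itgb1 and Lama2, and regions near starts or ends, apart from some results that are not reported here. Partners were named by the 4 highest folds of a list, and further partners after their values were seen, as were the close groups of Lama1 and Itga1. The members and lists were chosen with earlier results of these data known. Non-methylated libraries, and regions with more tamoxifen than oil signal, were not analysed here. Alternatives varied the q limit, scaling, window, overlap, depth and membership.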

Additional observations from a re-analysis of the deposited data

How the results depend on the processing

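Of 126 values recomputed with another q limit, scaling, window, overlap rule, depth or membership, 122 stayed within 1.5 times of a count or within the counting limits of a value. The 4 exceptions follow. With unscaled tamoxifen tags the median fold of member regions was 3.64 in place of 4.67. Within 500 bp of a gene end, 3 members had a region in place of 6, and the share of all protein-coding genes at 500 bp was not computed. With 30 or more oil tags required, members held 1.56 regions per 100 kb in place of 2.00. Within 1000 bp of a start, 2 members had a region, where none had one over the promoter window. That is 8.33% of members with a start entry, against 3.81% of all genes with one, and from 2 genes no excess is read. The number of members with a region ran from 25, with no extension or with 30 or more oil tags, to 32, with 5000 bp. At a q limit of 1e-10 it was 26 members with 63 regions, against 41.4% of all protein-coding genes at that limit. Shares of genes of like length were not recomputed for these settings, so no excess of members is read from the counts. With unscaled tags, the highest fold of each of the 27 members stayed within its counting limits. The ratio with no added 1 is the one that those limits enclose. Its 27 values could therefore not move and say nothing about stability, though they are counted among the 126 and the 122. Leaving out Itgb2l, which had no region, could not change a result either. For the members, the laminin genes and both partner lists, 1.5 times the count is more than the genes listed. Those counts could be labelled as moved only downward, so the 122 overstates stability. Low tamoxifen tags limit the precision of the highest folds. No paired analysis was possible because each group has 1 library.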
